A study of Homo sapiens with 2 samples.

Results

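The aldo-keto reductase genes were described across a pair of poly(A) RNA libraries from THP-1, a human acute monocytic leukaemia cell line. The Ara-C-resistant group was 1 library of THP-1 cells selected in cytarabine (Ara-C, a cytidine analogue used against acute myeloid leukaemia), with the drug stepped up between 5 nM and 10 µM. The parental group was 1 library of untreated THP-1 cells. Both were grown in the same serum-containing medium. Resistant cells were accepted once they doubled as fast as untreated cells. Whether the resistant line was cloned, and whether drug was present at harvest, is not given in the sources used here. The members were 10 genes taken by symbol, and 9 of them were found among the 30856 gene rows of the deposited table; AKR1B10 was not analysed here. The family was selected on the FPKM values and counts of these same libraries, so the levels and ratios of its members are a description and no test was made. With 1 library in each group, a difference between the cell populations and a difference between single cultures or library preparations cannot be told apart.

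Aldo-keto reductases are soluble, mostly NADPH-dependent enzymes that reduce aldehydes and ketones to alcohols. The AKR1C enzymes act on ketosteroids, prostaglandins and lipid aldehydes, and in human cells their genes are known as strong targets of NRF2, the transcription factor that responds to oxidants and electrophiles. The AKR1A, AKR1B and AKR7A enzymes clear sugar-derived, lipid-derived and toxin-derived aldehydes in many tissues. Myeloid leukaemia cells are known to express AKR1C3 in particular, which also activates some experimental prodrugs.

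The AKR1C genes form a cluster on chromosome 10, and the starts of AKR1C1 and AKR1C2 are almost the same sequence. In the table's GRCh38 coordinates the cluster ran from 4963253 to 5218949 on chromosome 10, about 256 kb. AKR1C1 lay on the plus strand (4963253 to 4983283) and AKR1C2 on the minus strand (4987400 to 5017955), tail to tail with 4116 bases between them. AKR1C3 (5035354 to 5107680) and AKR1C4 (5195462 to 5218949) followed on the plus strand, and AKR1E2 (4786629 to 4848062, plus strand) lay 115 kb before the cluster. The 250 bases before each annotated start, taken from RefSeq (GRCh38.p14), are shown because AKR1C2 and AKR1C1 were the members with the highest CPM ratio between the libraries. Capitals mark bases that differ from the AKR1C2 sequence or have no counterpart in it, within the stretch where both windows overlap; in AKR1C2 they mark the difference from AKR1C1. The RefSeq starts used lie inside the longer gene spans of the deposited table, and AKR1C3 has a second annotated start that is not shown.
AKR1C2 (chr10:5003858-5004107, minus strand): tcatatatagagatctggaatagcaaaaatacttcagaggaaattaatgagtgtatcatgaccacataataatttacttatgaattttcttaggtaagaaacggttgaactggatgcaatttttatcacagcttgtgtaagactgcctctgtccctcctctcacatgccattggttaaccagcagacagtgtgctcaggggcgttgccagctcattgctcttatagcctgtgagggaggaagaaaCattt
AKR1C1 (chr10:4963165-4963414, plus strand): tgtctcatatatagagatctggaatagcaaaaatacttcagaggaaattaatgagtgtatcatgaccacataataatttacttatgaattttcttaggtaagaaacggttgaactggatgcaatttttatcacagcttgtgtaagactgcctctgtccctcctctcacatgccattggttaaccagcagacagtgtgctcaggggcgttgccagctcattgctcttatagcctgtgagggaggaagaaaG
AKR1C3 (chr10:5048531-5048780, plus strand): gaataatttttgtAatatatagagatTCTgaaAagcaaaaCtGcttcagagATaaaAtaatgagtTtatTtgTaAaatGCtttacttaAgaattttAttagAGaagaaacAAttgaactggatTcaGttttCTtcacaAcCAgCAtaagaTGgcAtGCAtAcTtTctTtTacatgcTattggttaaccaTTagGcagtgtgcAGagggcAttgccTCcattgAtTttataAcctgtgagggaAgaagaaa
AKR1C4 (chr10:5196587-5196836, plus strand): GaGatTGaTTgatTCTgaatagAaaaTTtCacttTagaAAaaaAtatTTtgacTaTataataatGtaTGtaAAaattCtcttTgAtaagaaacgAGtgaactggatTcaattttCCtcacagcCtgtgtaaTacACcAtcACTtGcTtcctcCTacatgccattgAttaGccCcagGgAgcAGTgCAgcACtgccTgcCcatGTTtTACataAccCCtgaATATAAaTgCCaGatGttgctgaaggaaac

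AKR1C2 and AKR1C1 matched at 99.6% of 246 aligned bases, with 1 mismatch. The AKR1C3 window matched AKR1C2 at 77.2% of 237 aligned bases and the AKR1C4 window at 66.8% of 235. The windows of the AKR1C genes were poor in CpG, with 2 CpG in AKR1C2, 2 in AKR1C1, 1 in AKR1C4 and 0 in both AKR1C3 windows, against a median of 11 over 35116 promoter windows. Windows of the members expressed in both libraries were richer, with 17 CpG in AKR1A1, 28 and 12 in the AKR1B1 windows and 31 in each AKR7A2 window. So were those of members below 1 FPKM outside the AKR1C cluster, with 27 CpG in AKR7A3 and 18 and 16 in the AKR1E2 windows. All 9 members had a window in the RefSeq table, 13 windows in all. The core of the antioxidant response element, the site NRF2 binds, was searched as TGACNNNGC on both strands. It occurred in 10.9% of all windows, in no AKR1C window, and 3 times in each AKR7A2 window. Since most windows lack it, its absence from the few AKR1C windows is unremarkable. Only the 250 bases before each start were searched, so whether the AKR1C genes have the element elsewhere was not tested. The CCAAT box (CCAAT, both strands) occurred once in the windows of AKR1C2, AKR1C1 and AKR1C3, not in AKR1C4, and in 32% of all windows. The TATA box (TATAAA, both strands) occurred in the AKR1C4 window, in the AKR1C3 window shown and in 10.7% of all windows. No matches of different motifs overlapped in the member windows (0 in each of 13), and the pair of AKR7A2 windows are almost the same stretch. A match describes the letters of a window and nothing more.

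AKR1C2 was nearly absent from the parental library and present in the resistant one. AKR1C2 (ENSG00000151632), a ketosteroid reductase known for inactivating dihydrotestosterone, had 865 counts in resistant cells (exact 95% Poisson interval 808 to 925) and 6 counts in parental cells (2.20 to 13.1). Its level was 1.97 FPKM in resistant cells and 0.01 FPKM in parental cells. Scaled to the library total (CPM) it was 142-fold higher in resistant cells, with a 95% Clopper-Pearson counting interval of 65.0 to 388. On the log2(FPKM + 1) scale, which shrinks the ratio of low genes, the difference was 1.56, and 0.448% of the expressed genes had a larger absolute difference. Even so the gene stayed at a modest level, with 18.8% of expressed genes at a lower FPKM in the resistant library. Intervals of this kind cover counting error only, and reads without molecular identifiers are not independent molecules. In bulk RNA, more cells that express a gene and more RNA per cell cannot be told apart.

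AKR1C1 was also higher by counts, but below 1 FPKM in both libraries. AKR1C1 (ENSG00000187134), a ketosteroid reductase known for inactivating progesterone, had 170 counts in resistant cells (145 to 198) and 32 in parental cells (21.9 to 45.2). Its level was 0.28 FPKM in resistant cells against 0.05 in parental cells. Its CPM ratio was 5.23 (3.57 to 7.90). On the log2(FPKM + 1) scale its difference was 0.29, short of 2-fold, and 26.6% of expressed genes had a larger absolute difference. AKR1C3, known as a prostaglandin F synthase and as a reductase that makes testosterone, had 19 counts in resistant cells (11.4 to 29.7) and 28 in parental cells (18.6 to 40.5). Its CPM ratio of 0.669 had an interval that held 1 (0.353 to 1.24), at 0.07 FPKM in resistant cells against 0.10 in parental cells. AKR1C4, a liver form that acts on bile acid precursors and steroids, had 2 counts in resistant cells and 4 in parental cells. AKR1C2 and AKR1C1 were thus the AKR1C genes whose counting interval lay above 1, while a difference in AKR1C3 or AKR1C4 was not detectable at this depth.

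**Figure D1:**
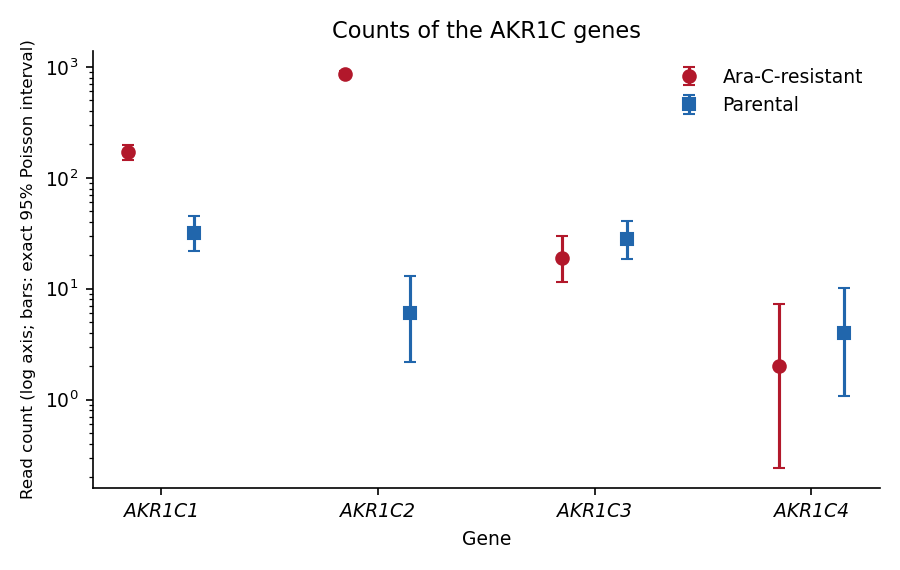
Read counts of the AKR1C genes in the Ara-C-resistant library (red circles) and the parental library (blue squares) on a log axis; bars are exact 95% Poisson intervals. AKR1C2 stood at 865 counts in resistant and 6 in parental cells and AKR1C1 at 170 in resistant and 32 in parental cells, while the intervals of AKR1C3 and AKR1C4 overlapped.

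Because AKR1C1 and AKR1C2 are near-identical and the others are related to them, the counts of the cluster were also summed. The sum does not depend on how reads were divided among the genes, provided that each shared read was counted once. Whether it was is not given in the sources used here. Over AKR1C1, AKR1C2, AKR1C3 and AKR1C4 there were 1056 counts in resistant cells (993 to 1122) and 70 in parental cells (54.6 to 88.4), a CPM ratio of 14.9 (11.7 to 19.2). AKR1C2 held 81.9% of this sum in resistant cells (exact 95% binomial interval 79.5 to 84.2) and 8.57% in parental cells (3.21 to 17.7). AKR1C1 held 16.1% in resistant and 45.7% in parental cells, and AKR1C3 held 1.80% in resistant and 40% in parental cells. The division of the cluster's counts was therefore different, with AKR1C2 first in resistant cells and AKR1C1 and AKR1C3 first in parental cells. Shares of counts are not scaled to transcript length. By FPKM, which is, AKR1C3 (0.1) lay above AKR1C1 (0.05) in parental cells. AKR1C1 and AKR1C2 together had a CPM ratio of 26.8 (19.4 to 38.1), and AKR1C3 and AKR1C4 together had 0.647 (0.354 to 1.16). Without AKR1C2 the cluster ratio was 2.94 (2.20 to 3.97).

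How far single reads can separate these genes was measured on the transcripts that the table lists for them, with sequences from GENCODE release 29. The coding sequences of AKR1C1 and AKR1C2 matched at 98.0% of 969 bases, with 19 mismatches and a longest identical stretch of 186 bases. AKR1C3 matched AKR1C2 at 91.0% and AKR1C4 matched it at 87.8%. Windows were pooled over all listed transcripts of a gene, some with retained introns, and were not weighted by level. Of all distinct 150-base windows (the length of 1 read) in AKR1C2 transcripts, 17.6% also occurred in a transcript of another member of the cluster. That share was 10.1% for AKR1C1, 0.584% for AKR1C3 and 0 of 1868 windows for AKR1C4. At 300 bases, the labelled insert size, it was 4.58% for AKR1C2 and 2.79% for AKR1C1. How the authors' counting treated reads that map to several genes is not given in the sources used here, so the AKR1C1 value in resistant cells is uncertain beside 865 counts of AKR1C2. The share of AKR1C1 counts that may belong to AKR1C2 was not tested.

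The members that carried most of the family's RNA were similar in both libraries and slightly lower in resistant cells. AKR7A2, AKR1B1 and AKR1A1 together made up 95.9% of the summed member FPKM in resistant cells and 98.6% in parental cells. AKR7A2 (chromosome 1, 19303965 to 19312146, minus strand), which reduces succinic semialdehyde and aflatoxin aldehydes, was at 31.47 FPKM in resistant cells against 33.21 in parental cells, with 3803 counts in resistant and 3945 in parental cells. Its CPM ratio was 0.95 (0.908 to 0.993). AKR1B1 (chromosome 7, 134442356 to 134459284, minus strand), the aldose reductase that turns glucose into sorbitol, was at 20.98 FPKM in resistant cells against 24.97 in parental cells, with 5208 counts in resistant and 6090 in parental cells. Its CPM ratio was 0.843 (0.812 to 0.875). AKR1A1 (chromosome 1, 45550543 to 45570049, plus strand), an aldehyde reductase with glucuronate among its substrates, was at 17.33 FPKM in resistant cells against 21.38 in parental cells, with 3677 counts in resistant and 4455 in parental cells. Its CPM ratio was 0.813 (0.778 to 0.850). The log2(FPKM + 1) differences were -0.08, -0.24 and -0.29 for AKR7A2, AKR1B1 and AKR1A1. They are ordinary in size: 73.6%, 33.0% and 26.4% of expressed genes had a larger absolute difference.

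The remaining members were scarce. AKR7A3, a second aflatoxin aldehyde reductase (chromosome 1, 19282573 to 19288770, minus strand), had 48 counts in resistant and 77 in parental cells, at 0.57 FPKM in resistant cells against 0.94 in parental cells. Its CPM ratio was 0.614 (0.419 to 0.892). Its coding sequence matched AKR7A2 at 92.1%, no 150-base window was shared with it, and 6.21% of its windows were shared with AKR7L. AKR1E2, a reductase of anhydrofructose, had 9 counts in resistant and 6 in parental cells, with a ratio interval of 0.470 to 5.05. By FPKM the order in resistant cells was AKR7A2, AKR1B1, AKR1A1, AKR1C2, AKR7A3, AKR1C1, AKR1C3, AKR1E2 and AKR1C4. In parental cells the same first 3 genes were followed by AKR7A3, AKR1C3, AKR1C1, AKR1E2, AKR1C4 and AKR1C2, so AKR1C2 came directly after the abundant members in resistant cells and last in parental cells. The last 5 in parental cells had between 4 and 32 counts, and their order is not resolved where counting intervals overlap.

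**Figure D2:**
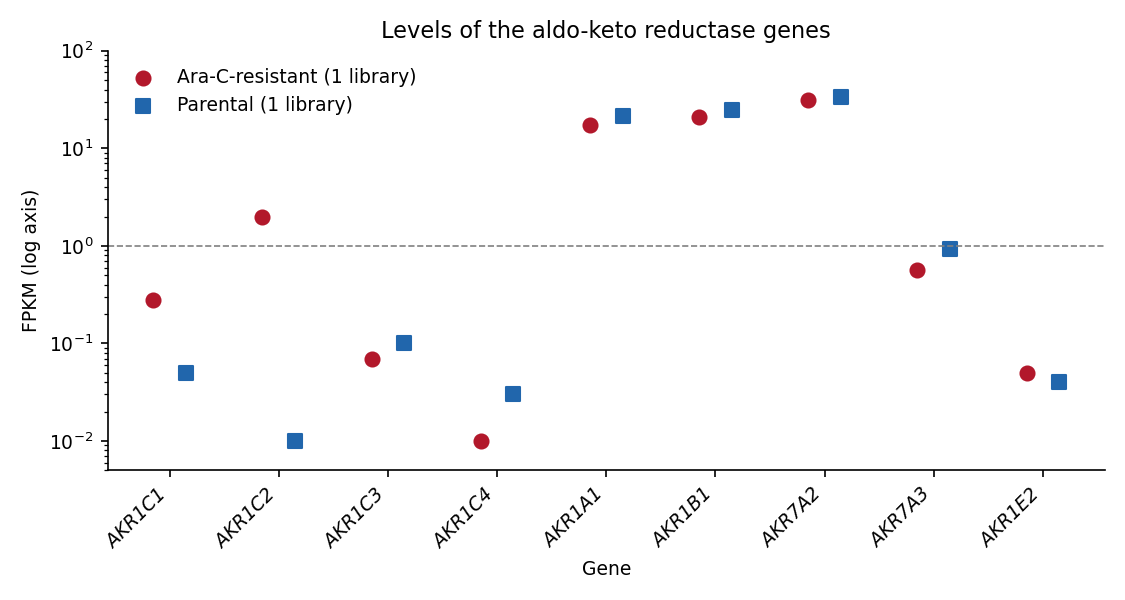
FPKM of the 9 analysed members (log axis) in the Ara-C-resistant library (red circles) and the parental library (blue squares); the dashed line is 1 FPKM. AKR7A2, AKR1B1 and AKR1A1 lay between 17.33 and 33.21 FPKM in both libraries, and AKR1C2 was at 1.97 FPKM in resistant cells and 0.01 FPKM in parental cells.

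Of the 9 analysed members, 4 had 1 FPKM or more in either library, the level at which a gene is called expressed here: AKR7A2, AKR1B1, AKR1A1 and AKR1C2. AKR1C2 passed through the resistant library alone. By a rule of size of at least 2-fold on the FPKM + 1 scale, 1 of these 4 was higher in resistant cells (AKR1C2) and 0 were lower. Of 11388 expressed genes with a symbol, 0.632% passed this rule on the higher side and 1.23% on the lower side. Since the members were proposed from this same contrast, nothing is read from that count. The median log2 difference was -0.16 over the 4 expressed members and -0.02 over all expressed genes. By counts, 5 members had at least 100 counts in 1 library, and 2 of these, AKR1C2 and AKR1C1, had a CPM ratio of at least 2, as did 2.08% of 12630 genes with a symbol at that depth. In that set AKR1C2 ranked 6 and AKR1C1 ranked 38 by CPM ratio. The counting interval lay above 1 for 2 of the 9 members, lay below 1 for 4 and held 1 for 3. Over 15952 genes with at least 20 counts it lay above 1 for 30.0% and below 1 for 37.7%. An interval that leaves out 1 is thus common at this depth. AKR1C4 and AKR1E2, whose intervals held 1, had fewer than 20 counts over both libraries and are outside that set.

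**Figure D3:**
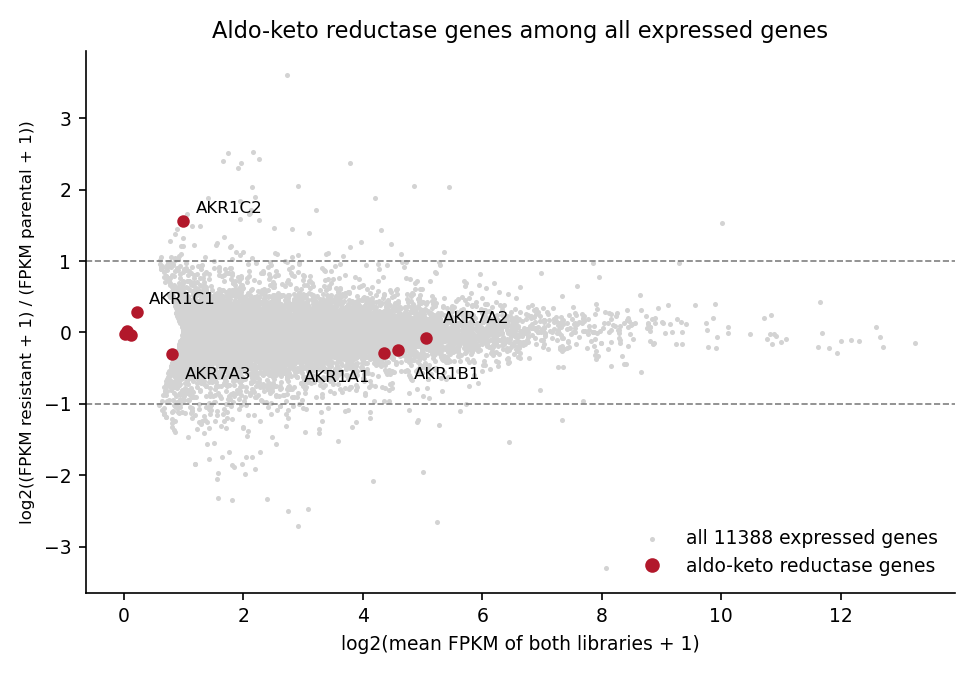
Log2 difference between resistant and parental cells on the FPKM + 1 scale against the log2 mean level for 11388 expressed genes (grey) and the 9 analysed members (red); dashed lines mark 2-fold. AKR1C2 lay at 1.56, and the other members lay between -0.31 (AKR7A3) and 0.29 (AKR1C1).

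Genes with a pattern like AKR1C2 were sought as protein-coding genes with a symbol, at most 10 counts in the parental library and at least 500 in the resistant library. Apart from AKR1C2 this found 1 gene, PDCD6-AHRR, with 4308 counts in resistant and 3 in parental cells (CPM ratio 1415, 484 to 6864). That name denotes a read-through transcript whose reads can be divided with overlapping genes. The measure rests on 2 libraries.

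Relatives in the wider superfamily were also read. KCNAB2, KCNAB1 and KCNAB3 encode beta subunits of potassium channels with an aldo-keto reductase fold. KCNAB2 was at 33.17 FPKM in resistant cells against 25.39 in parental cells, a CPM ratio of 1.31 (1.29 to 1.33). KCNAB1 had 8 counts in resistant and 62 in parental cells, a ratio of 0.127 (0.0526 to 0.266), and KCNAB3 had 83 in resistant and 54 in parental cells (1.51, 1.06 to 2.17). The pseudogene-like AKR7L had 70 counts in resistant and 41 in parental cells (1.68, 1.13 to 2.54), and the pseudogene AKR7A2P1 had 29 in resistant and 21 in parental cells. In the AKR1C cluster, the pseudogene AKR1C7P had 43 counts in resistant and 37 in parental cells (1.15, 0.721 to 1.83), and AKR1C5P had 0 in resistant and 2 in parental cells. AKR1D1, a liver steroid reductase, and the pseudogenes AKR1B1P1 and AKR1B1P2 had 0 counts in both libraries, for which a floor of 3 counts, a one-sided limit below the upper end of the two-sided Poisson interval (3.69), gives up to 0.0515 CPM in resistant cells and 0.0522 CPM in parental cells.

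**Figure D4:**
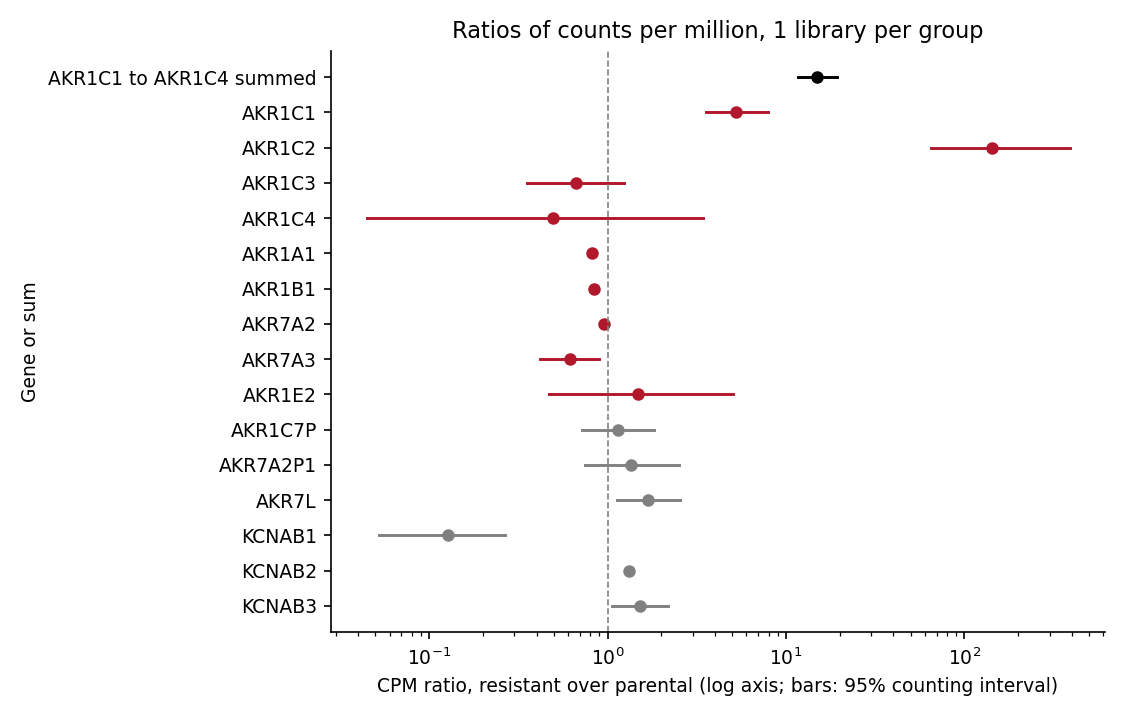
CPM ratio of resistant over parental cells (log axis) with 95% counting intervals for the AKR1C sum (black), the analysed members (red) and other rows of the superfamily (grey). AKR1C2 (142) and AKR1C1 (5.23) lay above 1, KCNAB1 (0.127) lay furthest below it, and the well-covered members lay between 0.813 and 0.95.

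The nearest expressed genes on each side of the members, some of them far away, did not share the AKR1C2 difference. For each locus the 5 nearest expressed genes on each side were read, 40 genes in all, and 0 were at least 2-fold apart on the FPKM + 1 scale, against 1.86% of all expressed genes. At least 1.5-fold differences were found in 5 of the 40, against 7.70% of all expressed genes. Around the AKR1C cluster and AKR1E2 the 10 neighbours lay between -0.62 and 0.13 on the log2 scale. The furthest of them was 3737 kb away. NET1, a RhoA exchange factor and the nearest gene after the cluster at 194 kb, was at 13.11 FPKM in resistant cells against 15.82 in parental cells. KLF6, a zinc finger factor and the nearest gene before AKR1E2 at 1001 kb, was at 2.49 FPKM in resistant cells against 4.33 in parental cells. ASB13, an adaptor of ubiquitin ligases, was at 5.29 FPKM in resistant cells against 8.66 in parental cells. Next to AKR1A1, the peroxiredoxin gene PRDX1 and the histone chaperone gene NASP had log2 differences of -0.31 and -0.27, beside -0.29 for AKR1A1, while all 10 neighbours of AKR1A1 had a median of 0.05 and lay between -0.42 and 0.64. PRDX1 was at 209.56 FPKM in resistant cells against 260.39 in parental cells, and NASP at 39.46 FPKM in resistant cells against 47.83 in parental cells. The ribosomal protein pseudogene RPS15AP10 near AKR1A1 was at 1.20 FPKM in resistant cells against 0.41 in parental cells. MRTO4, a ribosome assembly factor, was the nearest gene before the AKR7A genes, at 42.70 FPKM in resistant cells against 44.64 in parental cells. RNU6-1099P, a small nuclear RNA pseudogene inside AKR7A2, was at 1.05 FPKM in resistant cells against 0.08 in parental cells. Although not a flanking gene, it is counted among the 40 neighbours and the 5 at least 1.5-fold apart. The nearest gene beyond the end of AKR7A2 was SLC66A1 at 0.18 kb, with 9.09 FPKM in resistant cells against 7.61 in parental cells. Around AKR1B1 the nearest genes were the sugar transporter gene SLC35B4 (5.68 FPKM in resistant, 6.01 FPKM in parental cells) and BPGM (4.0 FPKM in resistant, 3.24 FPKM in parental cells), which makes bisphosphoglycerate. PODXL, a sialomucin gene 2884 kb before AKR1B1, was at 1.10 FPKM in resistant cells against 2.32 in parental cells.

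The medians of the listed targets and regulators of NRF2 lay near that of all expressed genes. The target list left out AKR1C2, which at 1.56 was beyond 2-fold. Of its 34 genes 29 were expressed, and 0 were at least 2-fold apart, beside 1.86% of all expressed genes. Of the 29, 12 lay above 0 and 17 below, with a median log2 difference of -0.06. FTH1, the ferritin heavy chain, had the largest difference, at 160 FPKM in resistant cells against 89.76 in parental cells. UGDH, which makes UDP-glucuronate, was at 2.99 FPKM in resistant cells against 5.03 in parental cells, and PTGR1, an alkenal and prostaglandin reductase, was at 3.45 FPKM in resistant cells against 5.52 in parental cells. Other single targets lay on both sides of the median. SLC7A11 and NQO1 had log2 differences of 0.51 and 0.43, and CBR3 and GCLM had -0.52 and -0.37. Of 13 regulators 12 were expressed, with a median of 0.03 and 0 at least 2-fold apart, beside the same 1.86%. The autophagy receptor gene SQSTM1 was at 10.57 FPKM in resistant cells against 8.20 in parental cells. BACH1, a repressor of the same sites, was at 3.55 FPKM in resistant cells against 4.27 in parental cells, and KEAP1, which marks NRF2 for degradation, was at 22.87 FPKM in resistant cells against 26.44 in parental cells. NFE2L2, the gene of NRF2 itself, was at 10.29 FPKM in resistant cells against 9.76 in parental cells. Whether NRF2 activity differed was not tested. Among 13 genes that supply NADPH, the family's cofactor, the median was -0.15 and 0 were 2-fold apart, beside the same 1.86%; ME3, IDH2 and NADK2 had the largest differences (-0.30, -0.28 and -0.28).

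Enzymes and receptors that share substrates with the family differed in single genes. Of the other carbonyl reductases and polyol pathway genes, 14 of 16 were expressed, and 1 was at least 2-fold lower: HSD11B1, which regenerates cortisol, at 2.43 FPKM in resistant cells against 6.56 in parental cells (CPM ratio 0.372, 0.320 to 0.431). Of all expressed genes 1.23% were this much lower and 1.86% were 2-fold apart in either direction. CBR3, a carbonyl reductase, was at 0.56 FPKM in resistant cells against 1.24 in parental cells, and DHRS4, a carbonyl and retinal reductase, at 9.45 FPKM in resistant cells against 11.37 in parental cells. Of the aldehyde dehydrogenases 11 were expressed and 0 were 2-fold apart, beside the same 1.86%. ALDH2, the mitochondrial acetaldehyde dehydrogenase, was at 5.57 FPKM in resistant cells against 9.59 in parental cells (CPM ratio 0.583, 0.559 to 0.607), and ALDH1L2 and ALDH4A1 had log2 differences of -0.22 and -0.19.

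Of 10 expressed genes of steroid metabolism, 0 were 2-fold apart on the FPKM + 1 scale. SRD5A1, which makes the AKR1C2 substrate dihydrotestosterone, was at 0.39 FPKM in resistant cells against 1.23 in parental cells (CPM ratio 0.323, 0.274 to 0.378). STAR, which brings cholesterol into mitochondria, was at 12.20 FPKM in resistant cells against 7.39 in parental cells, and SRD5A3, a polyprenol reductase, at 4.25 FPKM in resistant cells against 6.13 in parental cells. The 9 expressed prostaglandin genes had the highest median of these lists, 0.33, with 7 above 0 and 0 at least 2-fold apart. PTGER2, a prostaglandin E receptor, was at 2.17 FPKM in resistant cells against 0.86 in parental cells (CPM ratio 2.53, 2.08 to 3.10), and PTGR1, the second by size, lay the other way at -0.55 on the log2 scale. The cyclooxygenase PTGS1 was at 4.54 FPKM in resistant cells against 2.87 in parental cells. Of 11 expressed retinoid genes 10 lay below 0 (median -0.16), and 1 was at least 2-fold lower: CYP26B1, which breaks down retinoic acid, at 0.32 FPKM in resistant cells against 2.38 in parental cells (CPM ratio 0.136, 0.110 to 0.166). The retinol dehydrogenases RDH10 and RDH14 had log2 differences of -0.34 and -0.25. For all expressed genes the median was -0.02 and the quartiles were -0.18 and 0.13. The share of all expressed genes on each side of 0 was not taken. Whether the prostaglandin or retinoid genes differed as a set was therefore not tested. These 8 lists did not hold AKR1C2. With each gene counted once, 0 of their 100 expressed genes passed the 2-fold rule on the higher side and 2 on the lower side. Of all expressed genes 0.632% (higher) and 1.23% (lower) passed it.

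**Figure D5:**
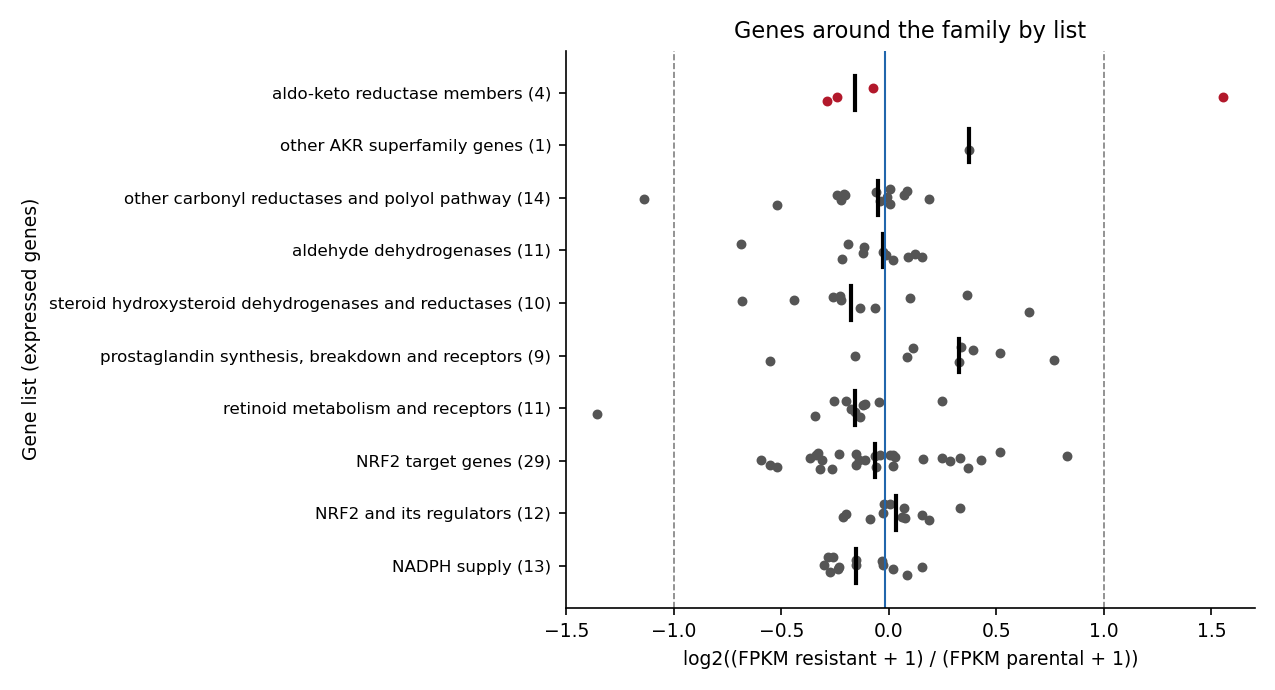
Log2 difference between resistant and parental cells on the FPKM + 1 scale for the expressed genes of each list other than the cell type markers, which are not plotted (points; number in brackets), with list medians (black bars), the median of all expressed genes (blue line) and 2-fold limits (dashed). AKR1C2, at 1.56, was the only plotted point beyond 2-fold on the higher side, and HSD11B1 (-1.14) and CYP26B1 (-1.36) lay beyond it on the lower side.

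The libraries were alike in depth, with 58285463 counts in resistant and 57434972 in parental cells, and mitochondrial transcripts took 5.92% of them in resistant and 5.96% in parental cells. Of 16 monocytic and myeloid markers 15 were expressed, with 1 at least 2-fold higher (FCER1G, at 32.83 FPKM in resistant cells against 14.79 in parental cells) and 1 at least 2-fold lower (LYZ, at 95.77 FPKM in resistant cells against 225.01 in parental cells), beside 0.632% (higher) and 1.23% (lower) of all expressed genes. MPO was at 0.94 FPKM in resistant cells against 2.81 in parental cells. Over the 15, 8 lay above 0 and 7 below, with a median log2 difference of 0.02. ELANE, neutrophil elastase, was at 447.86 FPKM in resistant cells against 358.77 in parental cells, FCGR1A, an Fc receptor gene, was at 41.21 FPKM in resistant cells against 29.62 in parental cells, and CD14, a monocyte antigen, was at 0.03 FPKM in resistant cells against 0.50 in parental cells. Markers of epithelial cells and hepatocytes, cell types known for high AKR1C levels, were low in both libraries and moved both ways. The 8 analysed epithelial markers summed to 1.42 FPKM in resistant cells against 2.02 in parental cells. By CPM 4 of them were higher in resistant cells, 3 were lower, and CDH1 had 0 counts in both. The keratin gene KRT7 had 83 counts in resistant and 34 in parental cells, and KRT18 had 41 in resistant and 13 in parental cells. CLDN7, a claudin gene, had 117 counts in resistant and 233 in parental cells. The 5 analysed hepatocyte markers summed to 0.65 FPKM in resistant cells against 0.36 in parental cells, with 3 higher and 2 lower by CPM. The apolipoprotein gene APOA1 was at 0.33 FPKM in resistant cells (25 counts) and listed at 0 in parental cells (0 counts). SERPINA1 had 46 counts in resistant and 38 in parental cells, and ALB had 5 in resistant and 14 in parental cells. Whether other cells had a part in the AKR1C2 difference was not tested. The 3 analysed erythroid and lymphoid markers summed to 0.52 FPKM in resistant cells against 0.52 in parental cells.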

How the data were processed

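Poly(A) RNA of 1 Ara-C-resistant and 1 parental THP-1 culture was sequenced as read pairs from dUTP libraries, per the labels' protocols. The deposited table gave an FPKM value with 2 decimals, normalised by the authors to length and library size, and a raw whole-number read count for each gene and library. The submitters' processing notes list the build GRCh38 and, without role or order, the tools StringTie 1.3.4d, HISAT2 2.0.4, cutadapt 1.9, edgeR and DESeq2; strand setting and multi-mapped reads are not given in the sources used here. For resistant cells the count column's name ends in a number that its FPKM column lacks, and no label gives the reason.

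Log2 differences were taken as log2(FPKM + 1) of resistant minus parental cells, over genes with a symbol and an FPKM of at least 1 in at least 1 library; a clone name was not taken as a symbol. No test was possible with 1 library per group, so a 2-fold rule of size was used, and counts scaled to the library total (CPM) were compared with exact 95% intervals for counting error. Members, lists, rules and motifs were chosen with earlier results of these data known. The text names all analysed members and superfamily rows, the 3 genes with the largest absolute difference of each list, and neighbours nearest or at least 1.5-fold apart. The other cell type markers named (CD14, ELANE, FCGR1A, CDH1, KRT7, KRT18, APOA1, SERPINA1 and ALB) were chosen after their values were seen. So were SLC7A11, NQO1, GCLM and NFE2L2, and CBR3 as a target of NRF2. Genes of the lists without a row were not analysed here. Tools were biopython 1.88, matplotlib 3.10.9, pandas 2.3.3, scipy 1.17.1 and numpy 2.4.6 under Python 3.11.15. Alternatives covered pseudocount, filter, scaling, size rule and the makeup of the AKR1C sum.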

Additional observations from a re-analysis of the deposited data

How the results depend on the processing

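The log2 differences of the 9 analysed members kept their sign in 18 of 18 recomputations under centring on the median gene and CPM scaling. A pseudocount cannot turn a sign. The other settings could turn few signs, since the median gene lay at -0.02 and the libraries were alike in depth. The signs of AKR1C3, AKR1C4 and AKR1E2 are not resolved, because their counting intervals held 1. The AKR1C2 difference was 4.23 with a pseudocount of 0.1 FPKM, 0.48 with 5 FPKM and 3.84 on the CPM + 1 scale. With 5 FPKM as pseudocount or as minimum, 0 members were at least 2-fold apart in place of 1, by construction, since AKR1C2 stood at 1.97 FPKM. Over all expressed genes the count of 212 was 592 with a pseudocount of 0.1 FPKM, 30 with 5 FPKM, 375 on the CPM + 1 scale, 89 with a minimum of 5 FPKM and 877 by a 1.5-fold rule. The AKR1C sum ratio of 14.9 was 2.94 without AKR1C2 and 9.94 with the AKR1C pseudogenes added. The sum of FPKM gave 12.3, with 2 when AKR1C2 was left out and 3.65 when the pseudogenes were added. The 2 list genes at least 2-fold apart were 5 with a pseudocount of 0.1 FPKM and 1 with a minimum of 5 FPKM, and the 0 neighbours were 1 with up to 10 genes on each side, 78 in all since 8 lay before the AKR1C locus (HPDL near AKR1A1, at 0.61 FPKM in resistant cells against 4.14 in parental cells). No paired analysis was possible because each group had 1 library. Depth limits the AKR1C3, AKR1C4 and AKR1E2 values, which rest on 2 to 28 counts, and no setting replaces replicate cultures.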
